A study of Mus musculus with 35 samples.

Results

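Cytoplasmic poly(A) RNA was compared between cells in which Chtop was knocked down and then re-expressed (rescue, 4 libraries) and cells with the knockdown alone (4 libraries), 8 of the 35 libraries of the series. The libraries were chosen by their labels alone: the cytoplasmic RESC and KD samples of both cell lines and both biological replicates. All cells were N2a Flp-In rtTA, a mouse neuroblastoma line with a single integration site for a transgene and a doxycycline-responsive activator. In the mEx5 line the transgene is a FLAG-tagged Chtop cDNA without exon 5, and in the pEx5 line it is a FLAG-tagged Chtop cDNA with exon 5, both resistant to the siRNA. Rescue cells received a Chtop siRNA and doxycycline, knockdown cells received the same Chtop siRNA without doxycycline, and control cells (3 cytoplasmic libraries, 2 of the mEx5 line and 1 of the pEx5 line) received a non-targeting siRNA pool without doxycycline. All cells were harvested at 72 h, wells of a condition were combined, equal cell numbers were taken within an experiment, and the cytoplasm was released with a mild detergent. No group had the control siRNA with doxycycline, so an effect of the drug or of the tagged protein alone cannot be told apart from rescue. One siRNA product was used, and the sources used here do not say whether each line is 1 clone.

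CHTOP is an RNA-binding protein of the nucleus that joins the TREX complex, the machinery that couples transcription and splicing to the export of mRNA. It is methylated on arginines by PRMT1, binds the export receptor NXF1, and stimulates the helicase UAP56 (DDX39B). A cytoplasmic fraction holds the mRNA that has left the nucleus, so its level of a transcript depends on synthesis, export and decay together.

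The exon by which the transgenes differ by name is shown first, because the rescue pools cDNAs with and without it. In the GENCODE annotation of mm10 the Chtop gene lies at chr3:90498956-90509498 on the minus strand. Exon 5 of its transcript Chtop-202 covers chr3:90502116-90502253, 138 bases with 62.3% G and C. That is a length of 46 codons, but the reading frame was not used, and the first base of the exon need not start a codon. Another annotated transcript, Chtop-207, joins exon 4 directly to exon 6. The sequences below run 5′ to 3′ along the transcript, with exon 5 in capitals and 15 bases of each neighbouring exon in lower case. The cDNA sequences themselves were not used here, so the match rests on the exon number.
Chtop-202, exons 4 to 6: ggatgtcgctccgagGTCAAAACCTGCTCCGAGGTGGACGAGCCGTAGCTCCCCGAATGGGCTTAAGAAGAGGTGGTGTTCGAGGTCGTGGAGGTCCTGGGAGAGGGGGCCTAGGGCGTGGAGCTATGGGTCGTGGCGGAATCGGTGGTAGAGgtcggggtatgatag
Chtop-207, exon 4 to exon 6: ggatgtcgctccgaggtcggggtatgatag

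The 8 libraries held 19478702 to 40105458 counts over the 9239 genes of the count table. One library stood apart: the pEx5 knockdown library of replicate 1 was the smallest, its mean correlation with the other 7 libraries on the log2 scale was 0.978, against 0.987 to 0.991 for the others, and 3.31% of its counts came from mitochondrially encoded genes, against 2.04% to 2.72% in the others. The log2 ratio of rescue to knockdown spread with an SD of 0.393 over genes in its pair, against 0.192, 0.129 and 0.122 in the mEx5 pairs 1 and 2 and the pEx5 pair 2. The counts of calls of the pooled comparison, and the values of some genes, are given with and without it. A value given once may also move without this library. The summed level of 12 neuroblastoma markers was 1274 to 1474 RPKM in rescue libraries and 1159 to 1429 RPKM in knockdown libraries (RPKM is a scale per transcript length), led by the neuronal tubulin Tubb3. The neuroblast marker Dcx was at most at 0.1 RPKM. The summed level of 10 immune markers was 0.22 to 0.62 RPKM in rescue libraries and 0.38 to 0.88 RPKM in knockdown libraries, and that of 10 fibroblast markers 1.91 to 2.23 RPKM in rescue and 1.73 to 2.29 RPKM in knockdown. Summed, 8 endothelial markers had 3.02 to 3.52 RPKM in rescue and 2.44 to 3.60 RPKM in knockdown, and 10 glial markers 4.95 to 6.04 RPKM in rescue and 3.93 to 5.01 RPKM in knockdown. The defining markers Ptprc, Col1a2, Cldn5 and Olig2 were listed at 0 in all 8 libraries. In bulk RNA, fewer cells with a transcript and less of it per cell cannot be told apart.

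Chtop itself was the gene with the highest fold change. Values per gene are CPM, which scale each count to the total of its library. Chtop had 175, 192, 204 and 180 CPM in rescue libraries (mEx5 replicates 1 and 2, then pEx5 replicates 1 and 2), against 26.1, 31.2, 20.5 and 17.7 CPM in knockdown libraries in the same order, and 137 to 148 CPM in control libraries. The groups did not overlap, and every rescue library stood above every control library. The mean was 134% of the control mean in rescue libraries and 17% of it in knockdown libraries. The log2 fold change of rescue against knockdown was 2.99 ± 0.15 (SE), a 7.95-fold difference, with an adjusted p of 0.000705 in edgeR (quasi-likelihood test, adjusted over all genes by Benjamini and Hochberg). Gene-level counts do not separate the transgene from the endogenous transcript. Without the pEx5 knockdown library of replicate 1 the log2 fold change was 2.96 and the adjusted p by edgeR was 0.0617.

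Beside Chtop, 2 genes rose and 1 gene fell in rescue against knockdown. In all, edgeR called 3 of 9238 genes higher (0.0325%) and 1 gene lower (0.0108%) at an adjusted p under 0.05. Selenoo (ENSMUSG00000035757.16, chr15:89089084-89100340) encodes selenoprotein O, a mitochondrial enzyme that transfers AMP to other proteins. Selenoo had 15.7, 16.8, 16.99 and 18.0 CPM in rescue libraries, against 7.1, 8.7, 7.2 and 10.1 CPM in knockdown libraries, and 16.3, 21.1 and 18.5 CPM in control libraries (mEx5 replicates 1 and 2, then pEx5). All 4 rescue libraries lay above all 4 knockdown libraries, and 3 of them lay inside the range of the controls. Selenoo rose by 1.02 ± 0.09 on the log2 scale (SE), a 2.03-fold difference (adjusted p = 0.00632, edgeR).

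Ahnak (ENSMUSG00000069833.13, chr19:8989284-9076914) encodes a very large scaffold protein found at the plasma membrane and with calcium channels. Ahnak had 108.4, 101.8, 106.5 and 115.9 CPM in rescue libraries, against 69.8, 74.5, 70.9 and 67.5 CPM in knockdown libraries, and 87.9, 111 and 85.4 CPM in control libraries. The rescue and knockdown libraries did not overlap, and the lowest rescue library lay above 2 of the 3 controls. Ahnak rose by 0.61 ± 0.06 on the log2 scale (adjusted p = 0.00961, edgeR). Tex13b (ENSMUSG00000042386.7, chrX:140808307-140813433), an X-linked gene of the testis-expressed Tex13 family, was the only gene that edgeR called lower in the 8 libraries. Tex13b had 53.7, 53.9, 48.7 and 48.0 CPM in rescue libraries, against 80.2, 81.1, 75.7 and 62.1 CPM in knockdown libraries, and 47.8, 46.9 and 41.3 CPM in control libraries. Tex13b fell by 0.55 ± 0.06 on the log2 scale (log2 fold change -0.55, adjusted p = 0.0370, edgeR), and all rescue libraries lay below all knockdown libraries and above all control libraries. As single libraries were left out in turn, the log2 fold change kept within 0.97 to 1.09 for Selenoo, 0.56 to 0.64 for Ahnak and -0.61 to -0.50 for Tex13b. The call itself was lost for 1 of 8 libraries left out for Chtop, 3 for Selenoo, 4 for Ahnak and 6 for Tex13b, with adjusted p-values from edgeR of up to 0.127 for Selenoo, 0.233 for Ahnak and 0.635 for Tex13b.

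**Figure D1:**
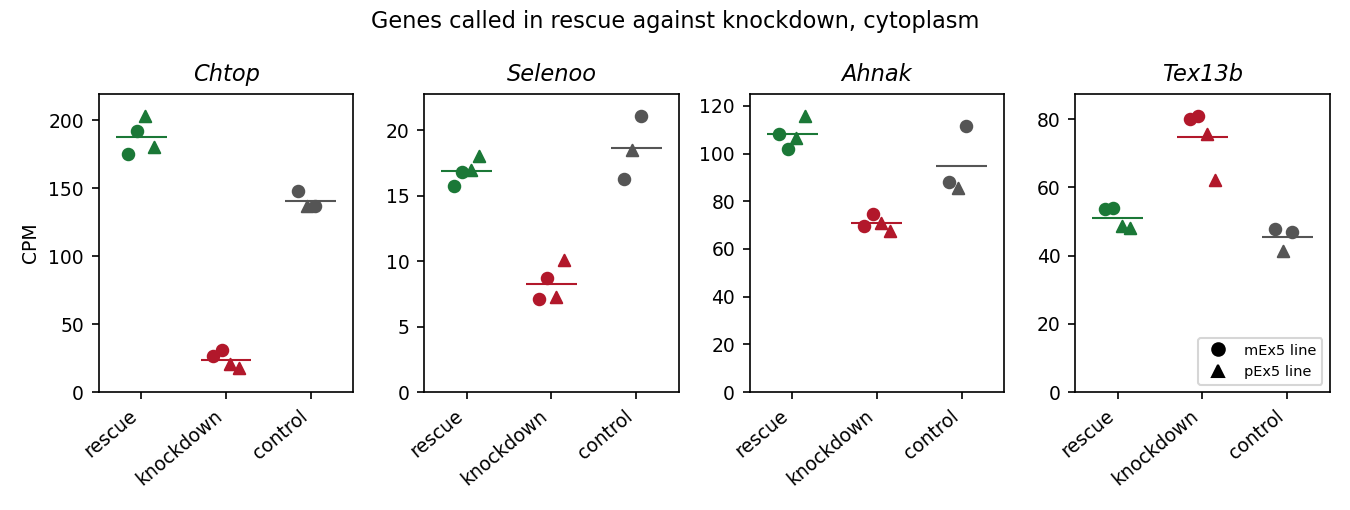
Level in CPM (y axis, from 0) of Chtop, Selenoo, Ahnak and Tex13b in each cytoplasmic library of rescue, knockdown and control cells, with circles for the mEx5 line, triangles for the pEx5 line and bars at the group means. In each panel the 4 rescue points and the 4 knockdown points do not overlap.

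Most of the transcriptome lay close to 0. The median log2 fold change over the 9238 genes was 0.00, 50.5% of genes were above 0, the median SE was 0.067, and the median half-width of a 95% interval was 0.153 on the log2 scale. A total of 36 genes differed by at least 1.5-fold in the fitted value and 3 by at least 2-fold: Chtop, Selenoo and the predicted gene Gm12338, at -1.08 ± 0.46 with a mean of 2.46 CPM (adjusted p = 0.319, edgeR), which is named because the count is small. Before adjustment, 856 genes (9.27%) were higher and 591 genes (6.4%) lower at p under 0.05. In 203 genes (2.2%) all 4 rescue libraries lay above all 4 knockdown libraries, and in 201 genes (2.18%) all 4 lay below. The median fold change of these genes was 1.16 and 0.876. Without the pEx5 knockdown library of replicate 1 the counts of such genes were 232 and 247 of 9238. With fewer libraries this rule is easier to meet, so a higher count does not show more consistent genes.

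The number of calls differed between tools and between sets of libraries, and the cause was not tested. DESeq2 called 79 genes higher (0.855%) and 27 lower (0.292%), and limma voom with a weight for the quality of each library, chosen after seeing that 1 library stood apart, called 69 higher (0.747%) and 47 lower (0.509%). Both of these tools called 52 genes higher (0.563%) and 23 lower (0.249%), which is 70.8% of the DESeq2 calls and 64.7% of the voom calls. All 4 genes called by edgeR were among them. Without the pEx5 knockdown library of replicate 1 edgeR called 18 genes higher and 10 lower, and without both libraries of that pair it called 4 higher and 2 lower.

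**Figure D2:**
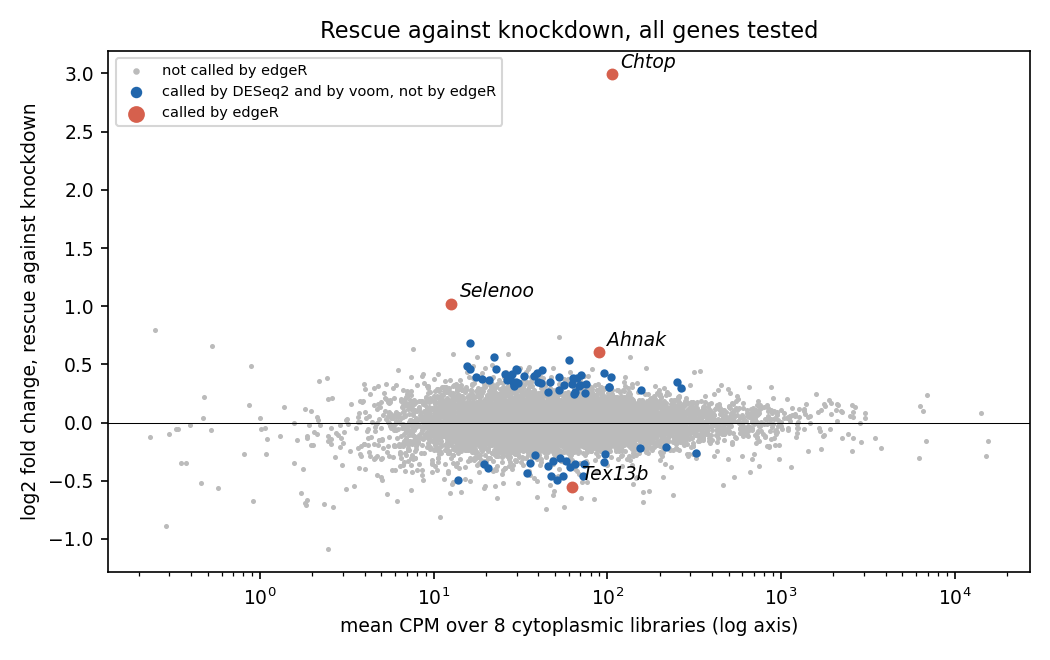
Log2 fold change of rescue against knockdown in cytoplasm (y axis) against the mean CPM of 8 libraries (x axis, log scale), with 1 point per gene tested, edgeR calls in red and genes called by both DESeq2 and voom in blue. Chtop stands alone at 2.99, and the blue points form bands above and below the zero line.

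The genes called by both DESeq2 and voom were named for their fold change by a rule written after these counts were seen, and in all 8 libraries edgeR called only Chtop, Selenoo, Ahnak and Tex13b among them. Higher genes included signalling genes and a synaptic gene. Prkca, the kinase protein kinase C alpha, had 26.6, 25.4, 30.2 and 24.6 CPM in rescue libraries, against 16.5, 21.1, 16.3 and 17.9 CPM in knockdown libraries, a log2 fold change of 0.56 ± 0.10 (adjusted p = 0.260, edgeR). All 4 rescue libraries of Prkca lay above all 4 knockdown libraries, and its controls were higher still, at 34.2, 39.2 and 41.6 CPM. Its log2 fold change without the pEx5 knockdown library of replicate 1 was 0.51 (adjusted p = 0.0504, edgeR).

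Syn2, which encodes synapsin II of synaptic vesicles, differed between the lines as well as the conditions. Syn2 had 90.9 and 91.5 CPM in the mEx5 rescue libraries, against 54.0 and 68.1 CPM in the mEx5 knockdown libraries, and 48.2 and 53.1 CPM in the pEx5 rescue libraries, against 28.6 and 44.4 CPM in the pEx5 knockdown libraries. Each rescue library of Syn2 stood above the knockdown libraries of its own line, and the log2 fold change was 0.53 ± 0.09 (adjusted p = 0.260, edgeR), or 0.47 without the pEx5 knockdown library of replicate 1 (adjusted p = 0.0313, edgeR). Nxf7, a member of the nuclear RNA export factor family, averaged 18.1 ± 3.4 CPM in rescue libraries and 12.95 ± 3.4 CPM in knockdown libraries (SD, n = 4 each), a log2 fold change of 0.49 ± 0.09 (adjusted p = 0.260, edgeR), or 0.46 without that library (adjusted p = 0.0371, edgeR). Klhl36, a BTB-Kelch protein gene, averaged 18.8 ± 1.4 CPM in rescue libraries and 13.5 ± 1.9 CPM in knockdown libraries (SD, n = 4 each), with controls at 13.5 ± 0.57 CPM (SD, n = 3), so its knockdown and control means lay together.

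Genes called lower by both tools and not by edgeR had log2 fold changes of smaller size than Tex13b. Mllt11, a small protein gene linked to leukaemia fusions, averaged 64.7 ± 3.7 CPM in rescue libraries and 82.7 ± 9.3 CPM in knockdown libraries (SD, n = 4 each), with controls at 62.2 ± 2.5 CPM (SD, n = 3). Zfp961, a zinc finger gene, averaged 17.04 ± 0.56 CPM in rescue libraries and 21.8 ± 1.7 CPM in knockdown libraries (SD, n = 4 each), with controls at 8.5 ± 1.6 CPM (SD, n = 3). Samd5, a SAM-domain gene, Smim10l1, a small membrane protein gene, Mob1b, a co-activator of the Hippo kinases, and Mcts2, an intronless copy of Mcts1 whose counts may be shared with its parent gene, had log2 fold changes of -0.38, -0.46, -0.43 and -0.50. In Mob1b, Smim10l1 and Mcts2 the largest log2 ratio was in the pEx5 pair of replicate 1, at -0.95, -0.94 and -0.94, against -0.42 to -0.11 in the other pairs. Without the pEx5 knockdown library of replicate 1 the log2 fold change was -0.30 for Mob1b, -0.34 for Smim10l1 and -0.35 for Mcts2, and edgeR then called Smim10l1 (adjusted p = 0.0431), Samd5 (adjusted p = 0.0430) and Mllt11 (adjusted p = 0.0371).

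Features that the comparison did not use are given here for genes on both sides, as a description with no test. The authors' deposited table marks 4484 genes as overlapping Chtop iCLIP, a method that maps where a protein touches RNA, from an experiment not described in the sources used here, which is 48.5% of the genes tested. According to the authors' deposited table the mark was on 142 of the 203 genes above in all 4 rescue libraries (70.0%) and on 58 of the 201 genes below in all 4 (28.9%). It was on 37 of the 52 genes called higher by DESeq2 and voom (71.2%) and on 7 of the 23 genes called lower (30.4%). Without the pEx5 knockdown library of replicate 1, the authors' deposited table marks 160 of the 232 genes above (69.0%) and 73 of the 247 genes below (29.6%), and 30 of 41 genes called higher (73.2%) and 7 of 17 genes called lower (41.2%) by DESeq2 and voom. The median annotated transcript was 3933 bases for the 203 genes, 2437 bases for the 201 genes and 2898 bases for all genes, and the median number of exons was 11, 6 and 9. In the authors' deposited table the median log2 ratio of nuclei to cytoplasm under control siRNA was 0.44 for the 203 genes, -0.29 for the 201 genes and -0.03 for all genes. In knockdown against control, 55.7% of 2343 genes called higher and 45.5% of 2502 genes called lower by edgeR had the mark. Their median transcripts were 3595 and 2501.5 bases, and their median log2 ratios of nuclei to cytoplasm 0.21 and -0.21. That ratio shares control libraries with the knockdown comparison. Higher and lower genes thus had the same order in knockdown as in rescue, and the reason was not tested. Across all genes the log2 ratio of rescue to knockdown had Pearson correlations with log2 transcript length of 0.0166 and -0.253 in the mEx5 pairs and 0.231 and 0.247 in the pEx5 pairs, which is a description across genes, which are not independent replicates. The part of transcript length in these shares was not tested.

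More genes were called in knockdown against control than in rescue against knockdown. In the fit of all 11 cytoplasmic libraries, 2343 genes (25.4%) were higher and 2502 genes (27.1%) lower in knockdown against control by edgeR, and 4349 genes (47.1%) were called in rescue against control. These comparisons share the control or the knockdown libraries with each other and with rescue against knockdown, so only each one's own values are given side by side. Of the 8 genes with the largest fall in knockdown among those with at least 5 CPM, Chtop was the only one above its control mean in the rescue libraries. Gnai2, an inhibitory G protein alpha subunit, had 97.7, 92.1, 84.5 and 83.9 CPM in rescue libraries, against 72.6, 85.9, 57.9 and 73.9 CPM in knockdown libraries and 269, 263 and 256 CPM in control libraries. Its rescue mean was 34.1% of control and its knockdown mean 27.6% of control. The log2 fold change of Gnai2 was 0.30 for rescue against knockdown, -1.90 for knockdown against control and -1.60 for rescue against control.

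The other genes lowered in knockdown were likewise above their knockdown mean and below their control mean in rescue libraries. Tuba8, an alpha tubulin, had a mean of 44.7% of control in rescue and 29.9% in knockdown. Ppp6r2, a regulatory subunit of protein phosphatase 6, had 42.8% in rescue and 33% in knockdown, and was the only one of the 7 genes other than Chtop whose groups did not overlap. Ephx1, the microsomal epoxide hydrolase, had 46.8% in rescue and 37.2% in knockdown. Both Ptgs1, a cyclooxygenase of prostaglandin synthesis, with 41.0% in rescue and 31.1% in knockdown, and Procr, the protein C receptor, with 46.4% in rescue and 29.1% in knockdown, had overlapping groups. Ctla2a, whose counts may be shared with its close copy Ctla2b, had 37.9% in rescue and 31.5% in knockdown. Ptgs1, Ctla2a, Procr and Ephx1 were also higher in the pEx5 than in the mEx5 line in each condition. In Tuba8 and Procr the log2 ratio of rescue to knockdown was 0.92 and 0.91 in the mEx5 pair of replicate 1 and 1.26 and 1.29 in the pEx5 pair of replicate 1, and 0.15 to 0.24 in the pairs of replicate 2. Their log2 fold changes without the pEx5 knockdown library of replicate 1 were 0.39 for Tuba8, against 0.59 with it, and 0.43 for Procr, against 0.63.

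The genes with the largest rise in knockdown had log2 fold changes of -0.27 to -0.08 in rescue against knockdown, apart from Rn7s1 at -0.51, which was -0.16 without the pEx5 knockdown library of replicate 1. Fndc10, a membrane protein gene, had 28.3, 31.7, 30.4 and 32.8 CPM in rescue libraries, against 35.0, 29.7, 35.0 and 30.2 CPM in knockdown libraries and 6.3 to 7.4 CPM in control libraries. Its log2 fold change was -0.08 for rescue against knockdown, with a 95% interval of -0.26 to 0.11, and 2.18 for knockdown against control. Gid4, the substrate receptor of the CTLH ubiquitin ligase, averaged 117 ± 6.3 CPM in rescue libraries and 127 ± 7.6 CPM in knockdown libraries (SD, n = 4 each), with controls at 41.3 ± 6.9 CPM (SD, n = 3). Its log2 fold change for rescue against knockdown was -0.12, with a 95% interval of -0.24 to -0.01. Tmem203, Rbms2, Rnf227, Hist3h2ba and Pdlim3, which encode a calcium-related membrane protein, an RNA-binding protein, a RING finger protein, a histone H2B and an actin-binding PDZ-LIM protein, had rescue means of 215% to 265% of control and knockdown means of 263% to 290% of control. None of these was called by edgeR in rescue against knockdown in all 8 libraries. When the pEx5 knockdown library of replicate 1 was left out, the log2 fold change of Rnf227 was -0.13, against -0.27 with it, and Hist3h2ba was called lower at -0.27 (adjusted p = 0.0386, edgeR). Rn7s1, a 7SL RNA gene (the RNA component of the particle that targets proteins to the ER) whose counts cannot be parted from near-identical copies, had 48.5 to 79.9 CPM in rescue libraries, against 73.6, 70.3, 143 and 73.2 CPM in knockdown libraries, and the value of 143 CPM came from the pEx5 library of replicate 1.

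**Figure D3:**
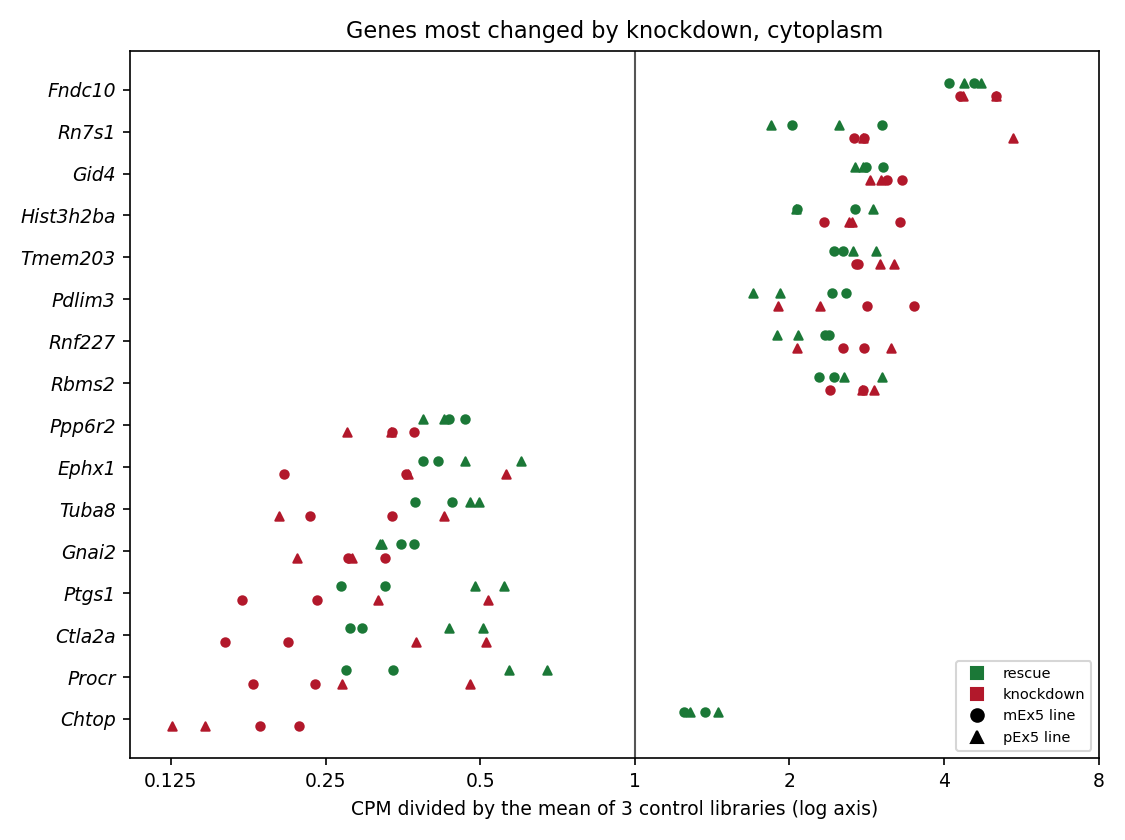
CPM of each rescue and knockdown library divided by the mean of 3 control libraries (x axis, log scale, control mean at 1) for the 8 genes with the largest rise and the 8 with the largest fall in knockdown against control, with circles for the mEx5 line and triangles for the pEx5 line. Chtop in rescue lies right of 1, at a mean of 134% of control, while Gnai2 in rescue lies at 34.1% of control and Gid4 in rescue at 283%.

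To look at the rescue in genes picked from other libraries, genes changed at least 2-fold by the knockdown in one line alone were followed in the rescue to knockdown ratio of the other line, which shares no library with the pick. Libraries of both lines carry the same replicate numbers, so sharing no library need not make the lines independent. Chtop was left out. In the mEx5 line 72 genes (0.78%) were raised and 143 genes (1.55%) lowered at least 2-fold and called by edgeR. In the pEx5 rescue the median log2 ratio was -0.22 for the raised genes, 81.9% of which were below 0, and 0.17 for the lowered genes, 79.0% of which were above 0. Over all 9233 genes of that fit the median was 0.01 and 51.5% were above 0.

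In the reverse direction the pEx5 line, with 1 control library, gave 59 raised genes (0.639%) and 92 lowered genes (0.996%). That pick takes its spread from the pair of pEx5 knockdown libraries alone, which includes the library that stood apart, and assumes that the lone control varies like them. In the mEx5 rescue the median log2 ratio was -0.16 for the raised genes, 91.5% of which were below 0, and 0.19 for the lowered genes, 91.3% of which were above 0. A pick by fold alone, without the library that stood apart, gave 60 raised and 92 lowered genes with at least 5 CPM, whose medians in the mEx5 rescue were -0.11 and 0.14. The knockdown change by which the genes called by edgeR were picked had medians of 1.19 and -1.17 on the log2 scale in the mEx5 line. In the pEx5 line these were 1.23 and -1.19. That change was at least 2-fold by rule, may be raised in size by the pick, and was measured in the other line than the rescue ratio. All these median shifts in rescue were a fraction of it in size. The size differed between replicates: the medians of raised and lowered genes were -0.33 and 0.30 in the pEx5 pair of replicate 1 and -0.10 and 0.07 in that of replicate 2, and -0.22 and 0.29 in the mEx5 pair of replicate 1 and -0.07 and 0.06 in that of replicate 2. The direction was the same in all 4 pairs, 3 of which hold no library that stood apart. Genes are not independent replicates, and with 2 pairs a line no test was made of these medians.

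**Figure D4:**
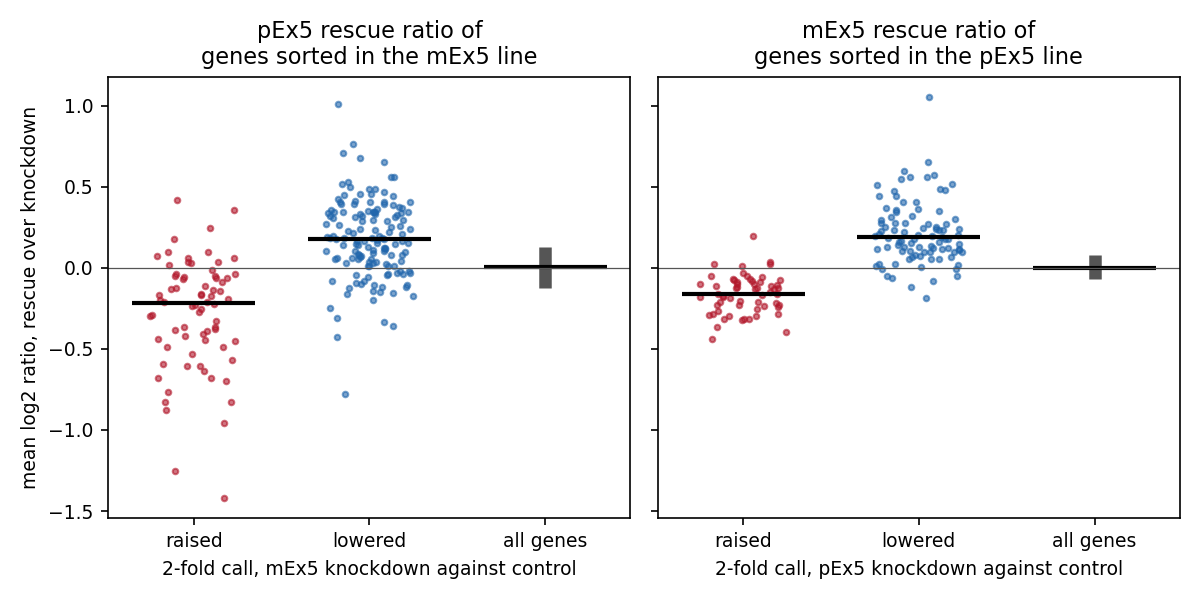
Mean log2 ratio of rescue over knockdown (y axis) of 1 line for genes raised or lowered at least 2-fold by knockdown in the other line, with 1 point per gene, black bars at the medians and a grey bar for the middle 50% of all genes. Raised genes have medians of -0.22 and -0.16 and lowered genes medians of 0.17 and 0.19, in the pEx5 and mEx5 rescue.

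Taken line by line, edgeR called 1 gene (0.0108%) in the mEx5 rescue against the mEx5 knockdown and 1 gene (0.0108%) in the pEx5 rescue against the pEx5 knockdown, which was Chtop in both. Its log2 fold change was 3.32 ± 0.13 in the pEx5 line and 2.68 ± 0.12 in the mEx5 line, a difference of 0.63 ± 0.17 (adjusted p = 0.809, edgeR). Before adjustment the p of that Chtop difference was 0.00540 in edgeR. Selenoo changed by 0.99 ± 0.13 in the pEx5 line and 1.05 ± 0.14 in the mEx5 line, Ahnak by 0.66 ± 0.08 and 0.55 ± 0.08, and Tex13b by -0.53 ± 0.10 and -0.58 ± 0.10. No gene was called for the difference between the lines (0 of 9238 genes, 0%; 397 at an unadjusted p under 0.05) by edgeR, and DESeq2 called 22, all more negative in the pEx5 line. With 2 libraries a group, the median SE of that difference was 0.134 on the log2 scale. The counts of the line-wise fits hinged on 1 library: without the pEx5 knockdown library of replicate 2, which leaves the library that stood apart as the only pEx5 knockdown, edgeR called 3135 genes in the pEx5 rescue and 1235 for the difference, and without that of replicate 1 it called 4 and 5.

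Gene lists chosen for the biology of Chtop and of these cells held no edgeR call. Of 1099 distinct genes tested in 36 lists, 0 were called and 153 had an unadjusted p under 0.05, against 1447 of all 9238 genes. The list medians ran from -0.25 to 0.14 on the log2 scale, against 0.00 over all genes. In 26 of the 36 lists the pair with the largest median shift was the pEx5 pair of replicate 1. The medians of 5 lists were above 0 in all 4 pairs (neuronal cytoskeleton and synapse, secretory granule and peptides, interferon response, translation factors, heterotrimeric G protein subunits), and those of 6 lists were below 0 in all 4 (mRNA export factors, fatty acid synthesis, ER chaperones, S-phase and DNA replication, nuclear long noncoding RNAs, histone genes).

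The partners of Chtop in export showed small differences. Of 36 mRNA export factors, 0 were called by edgeR or DESeq2 and 2 were called lower by voom, 0 were higher and 8 were lower at an unadjusted p under 0.05, against 9.27% and 6.4% of all genes, and the list median was -0.08. Ddx39, a close relative of the helicase that Chtop stimulates, had 123, 137, 128 and 134 CPM in rescue libraries, against 147, 162, 147 and 146 CPM in knockdown libraries, and was the only export factor whose groups did not overlap (log2 fold change -0.21 ± 0.05, adjusted p = 0.269, edgeR). Thoc1, a subunit of the THO complex, had a log2 fold change of -0.35 ± 0.09, or -0.26 without the pEx5 knockdown library of replicate 1. Nxf1, the export receptor, had -0.07 ± 0.06, Alyref, an export adaptor, -0.14 ± 0.06, and Ddx39b itself -0.11 ± 0.05. Of 14 genes for arginine methylation and its partners, 7 were above 0, and Prmt1, which methylates Chtop, had 0.02 ± 0.06 on the log2 scale.

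Of 42 S-phase and DNA replication genes, 0 were called by edgeR, 1 was called lower by DESeq2 and 1 by voom, and 35 were below 0. At an unadjusted p under 0.05, 12 were lower and 0 higher, against 6.4% and 9.27% of all genes, and 6 had all rescue libraries below all knockdown libraries, against 2.18% of all genes. Pcna, the sliding clamp of DNA polymerase, had 142, 150, 134 and 144 CPM in rescue libraries, against 171, 155, 185 and 152 CPM in knockdown libraries (log2 fold change -0.22 ± 0.08, adjusted p = 0.300, edgeR), with -0.14 without the pEx5 knockdown library of replicate 1. Cdc6, a loader of the replicative helicase, had -0.19 ± 0.05 and Ccne2, cyclin E2, -0.41 ± 0.12, which was -0.26 without that library. Of 35 mitosis genes, 21 were above 0, 1 was higher and 2 were lower at an unadjusted p under 0.05, and the list median was 0.02.

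Of 34 neuronal cytoskeleton and synapse genes, 0 were called by edgeR and 26 were above 0. At an unadjusted p under 0.05, 8 were higher and 2 lower, against 9.27% and 6.4% of all genes, with a list median of 0.06 and pair medians of 0.04, 0.02, 0.15 and 0.03 (mEx5 replicates 1 and 2, then pEx5 replicates 1 and 2). The list ran from -0.26 for the RNA-binding protein gene Elavl2 to 0.53 for Syn2. Of 13 secretory granule and peptide genes, 10 were above 0, 3 were higher and 0 lower at an unadjusted p under 0.05, and the lowest was the vesicle gene Syt4 at -0.13. Chgb, the granule protein chromogranin B, had 446, 412, 317 and 377 CPM in rescue libraries, against 306, 368, 177 and 315 CPM in knockdown libraries, and its groups overlapped (log2 fold change 0.44 ± 0.12, adjusted p = 0.300, edgeR). Alk, the receptor kinase of neuroblastoma, had 42.7, 42.6, 44.0 and 41.9 CPM in rescue libraries, against 32.7, 38.6, 24.75 and 33.99 CPM in knockdown libraries, with no overlap (log2 fold change 0.40 ± 0.10, adjusted p = 0.269, edgeR). Dusp4 and Dusp6, phosphatases that feed back on ERK signalling, had 0.43 ± 0.16 and 0.40 ± 0.11. The log2 fold change without the pEx5 knockdown library of replicate 1 was 0.27 for Dusp4, 0.30 for Dusp6, 0.30 for Chgb and 0.30 for Alk. In replicate 2 Dusp4 had 243 and 426 CPM in the mEx5 and pEx5 rescue, against 234 and 403 CPM in the mEx5 and pEx5 knockdown.

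Mitochondrial and noncoding lists had their largest shifts in the pEx5 pair of replicate 1, which holds the library that stood apart, and the part of that library was not tested. The median of 15 mitochondrially encoded genes was -0.83 in the pEx5 pair of replicate 1 and -0.08 in that of replicate 2, and -0.21 and 0.08 in the mEx5 pairs 1 and 2. The 77 nuclear-encoded respiratory chain genes had -0.48 and -0.11 in the pEx5 pairs and -0.02 and 0.17 in the mEx5 pairs, and the 13 noncoding snoRNA host genes had -0.77 and -0.09 in the pEx5 pairs and -0.04 and 0.15 in the mEx5 pairs. The 86 ribosomal protein genes had opposite signs by line, at -0.13 and -0.10 in the pEx5 pairs and 0.11 and 0.21 in the mEx5 pairs. Of 25 cholesterol synthesis and uptake genes, 10 were above 0, with a median of -0.04 for rescue against knockdown and, side by side, -0.56 for knockdown against control. Atf5, a stress-response transcription factor of the ATF4 list, had 191, 210, 204 and 206 CPM in rescue libraries, against 236, 236, 229 and 235 CPM in knockdown libraries, with no overlap (log2 fold change -0.21 ± 0.05, adjusted p = 0.260, edgeR). Mat2a, the methionine adenosyltransferase with a detained intron, had 178, 193, 154 and 176 CPM in rescue libraries, against 270, 213, 297 and 195 CPM in knockdown libraries (log2 fold change -0.47 ± 0.13, adjusted p = 0.300, edgeR), with -0.32 without the pEx5 knockdown library of replicate 1. Of 206 Zfp zinc finger genes, 97 were above 0 and the median was -0.01.

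**Figure D5:**
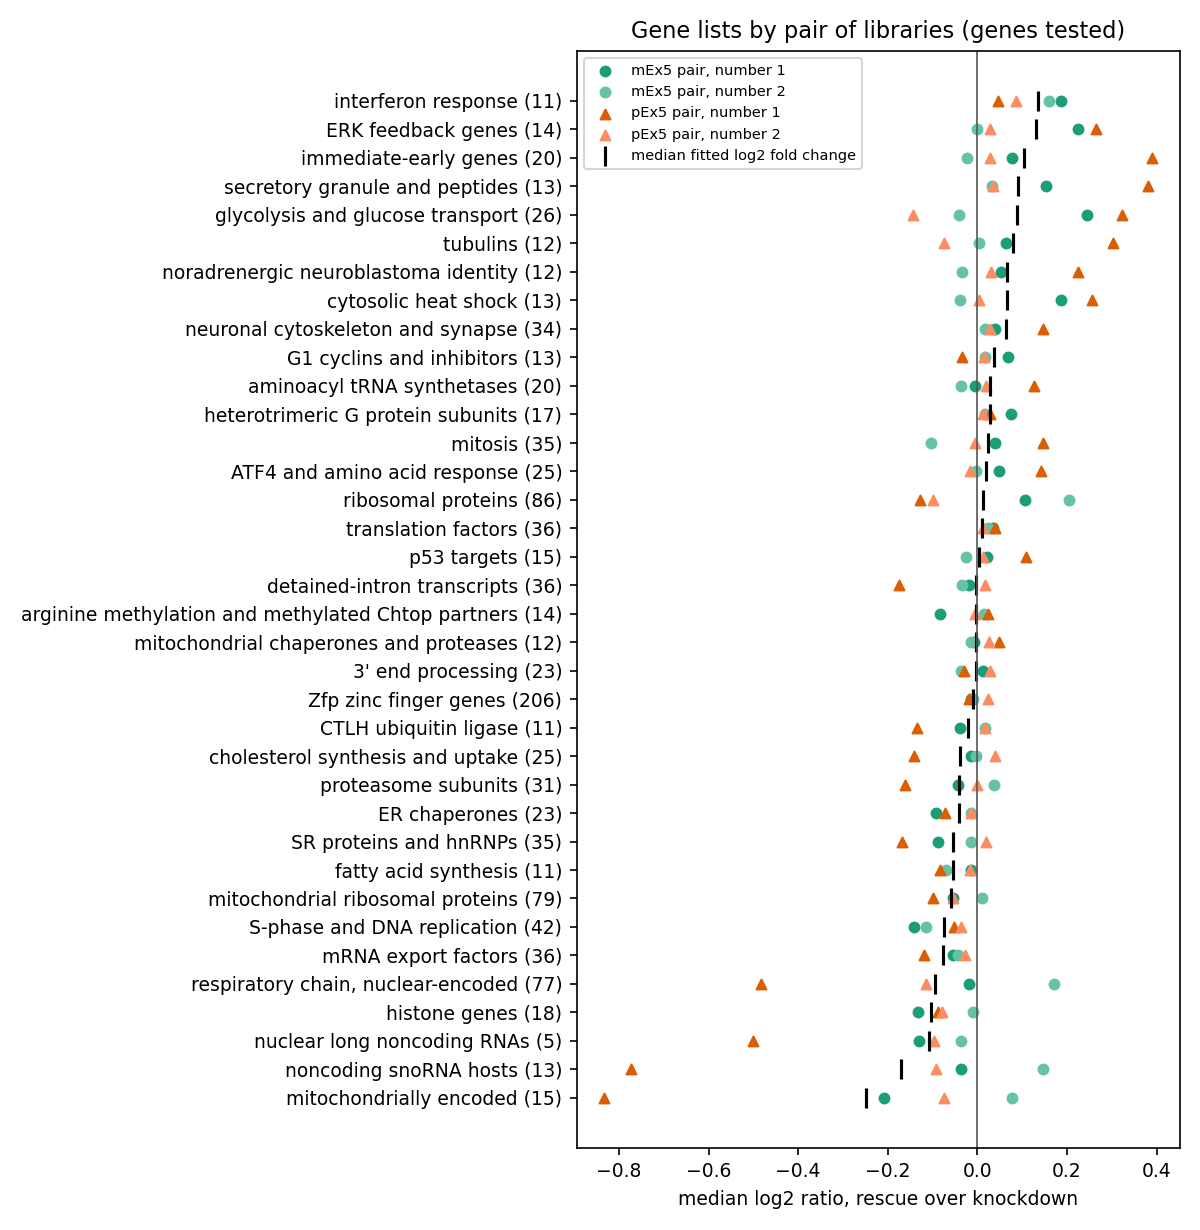
Median log2 ratio of rescue over knockdown (x axis) of each gene list in the 4 pairs of libraries, with the number of genes tested in brackets, circles for the mEx5 pairs, triangles for the pEx5 pairs and bars for the median fitted log2 fold change. The pEx5 pair of replicate 1 lies farthest from 0 in 26 of 36 lists, at -0.83 for the mitochondrially encoded genes.

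The same contrast was set beside the other fractions of the same cultures. In nuclei edgeR called 711 genes (7.7%), and in total lysate 27 genes (0.292%). The difference of the rescue effect between cytoplasm and nuclei was called for 2 genes (0.0216%), Rbm15 and Chtop, and DESeq2 called 5. Rbm15 encodes an adaptor of the m6A methyltransferase complex. In cytoplasm Rbm15 had 52.9, 45.6, 51.5 and 45.2 CPM in rescue libraries, against 39.2, 37.9, 35.3 and 29.8 CPM in knockdown libraries. In nuclei it had 48.5, 49.5, 47.8 and 50.7 CPM in rescue libraries, against 64.0, 87.9, 69.5 and 68.2 CPM in knockdown libraries. The groups did not overlap in either fraction and had opposite orders. Control libraries had 48.7 to 51.0 CPM in cytoplasm, within the range of the rescue libraries. In nuclei the controls had 52.4 to 73.7 CPM, overlapping the knockdown libraries, and every rescue library lay below every control. The log2 fold change was 0.45 ± 0.07 in cytoplasm (adjusted p = 0.144, edgeR, or 0.00894 without the pEx5 knockdown library of replicate 1) and -0.59 ± 0.08 in nuclei (adjusted p = 5.63e-05, edgeR), a difference of 1.04 ± 0.13 (adjusted p = 0.0330, edgeR).

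For Chtop the log2 fold change was 2.99 in cytoplasm and 2.03 ± 0.09 in nuclei, a difference of 0.97 ± 0.13 (adjusted p = 0.0330, edgeR). In nuclei Chtop had 249, 269, 302 and 222 CPM in rescue libraries, against 61.6, 70.6, 57.3 and 59.5 CPM in knockdown libraries, and 94.9 to 129 CPM in control libraries. Both differences were sensitive to single cultures: leaving out 1 culture in both fractions gave 0 calls for 6 of 8 cultures, all but the mEx5 knockdown of replicate 1 and the pEx5 rescue of replicate 2. Against total lysate edgeR called no gene for a difference (0 of 9239, 0%; 631 at an unadjusted p under 0.05), and DESeq2 called 0.

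The genes of the cytoplasmic comparison were also looked at in total lysate and nuclei, which are other libraries from the same cultures. Selenoo had 16.9, 16.97, 14.9 and 18.7 CPM in total lysate of rescue cells, against 8.5, 9.2, 7.6 and 10.1 CPM in that of knockdown cells, a rise of 0.92 ± 0.08 on the log2 scale (adjusted p = 0.000705, edgeR), and it rose by 0.48 ± 0.08 in nuclei (adjusted p = 0.00149, edgeR). Tex13b fell in total lysate by 0.33 ± 0.05 (log2 fold change -0.33, adjusted p = 0.0340, edgeR), and had -0.16 ± 0.07 in nuclei. Its CPM were far higher in nuclei than in cytoplasm, at 330 to 358 CPM in rescue and 343 to 416 CPM in knockdown nuclei. Ahnak spread widely in these fractions: in nuclei it had 364, 478, 485 and 970 CPM in rescue libraries, against 232, 656, 489 and 1112 CPM in knockdown libraries. Its log2 fold change was 0.38 ± 0.17 in total lysate and -0.04 ± 0.18 in nuclei. Over all genes, 4825 of 9236 were above 0 in total lysate and 4529 of 9238 in nuclei. Of the 52 genes called higher in cytoplasm by DESeq2 and voom, all 52 were above 0 in total lysate, with a median of 0.27, and 40 in nuclei, with a median of 0.16. Of these 52, edgeR called 9 higher and 0 lower in total lysate, where it called 0.292% of all genes, and 13 higher and 3 lower in nuclei, where it called 7.7% of all genes. Of the 23 genes called lower, 20 were below 0 in total lysate and 22 in nuclei, with medians of -0.26 and -0.19, and edgeR called 6 lower in total lysate and 10 lower in nuclei.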

How the data were processed

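Salmon 0.14.1, DESeq2 and mm10 are named in the submitters' processing notes without their roles. Gene counts were deposited as integers for 9239 genes, and how these genes were picked is not stated. The deposited RPKM values served for marker genes alone, and 1 RPKM column that matches no label was left aside. Log2 ratios of nuclei to cytoplasm and the iCLIP mark come from the authors' deposited table.

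Counts of the 8 libraries were filtered with filterByExpr (9238 genes left), scaled by TMM and fitted with line, replicate number and condition in edgeR 4.0.16 under R 4.3.3 (robust quasi-likelihood test, Benjamini-Hochberg adjusted p under 0.05). The SE is the log2 fold change divided by the root of F. Line differences and fraction differences used the interaction term. The 11-library fit served for knockdown and rescue against control. Pair ratios are TMM-scaled log2 CPM with a prior count of 1. DESeq2 1.42.0 and limma 3.58.1 (voom with library quality weights) were alternatives. Scripts were tested on simulated data. P-values rest on the spread left by each fit between replicates that the labels call biological. In the pooled fit that spread also holds any difference of the rescue effect between the lines. No spike-in is named in the labels, so changes are relative to the typical gene.

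Residuals of libraries with the same number correlated at 0.0598 to 0.647 (6 pairs of groups). The comparison and the gene lists were chosen with earlier results of these data known. Named genes were Chtop, up to 12 called genes a direction with at least 5 CPM, and up to 6 a direction called for line or fraction differences. After the 4 calls were seen, the 8 highest and 8 lowest genes called by both DESeq2 and voom, and the 8 highest and 8 lowest of knockdown against control, were added, and predicted genes were passed over. Some genes that these rules pick are not reported here. List members are named by role or for their value after values were seen.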

Additional observations from a re-analysis of the deposited data

Results flagged for a closer look

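The Rn7s1 value of the pEx5 knockdown library of replicate 1 stood far from the other knockdown libraries, at 143 CPM against 70.3, 73.2 and 73.6 CPM, a gap of 0.955 of the whole range. It was the only such value in 64 groups of 4 libraries looked at, of which chance would mark about 1 in 20. That library stood apart in other measures too. Without it the log2 fold change of Rn7s1 in rescue against knockdown was -0.16, against -0.51 with it.

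The difference of the rescue effect between cytoplasm and nuclei was 1.04 on the log2 scale for Rbm15 and 0.971 for Chtop, and the interaction passed at an adjusted p of 0.0330 by edgeR for both. Rbm15 was higher in rescue than in knockdown in 4 of 4 same-numbered pairs in cytoplasm, but these libraries also gave the call, so this adds no support. Leaving out 1 culture in both fractions gave 0 calls for 6 of 8 cultures.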

How the results depend on the processing

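For the pooled comparison, the counts of genes higher and lower were 79 and 27 with DESeq2, 69 and 47 with voom and library quality weights, and 6 and 1 with all 11 cytoplasmic libraries. Without the pEx5 pair of replicate 1, a setting chosen like voom after seeing the data, they were 4 and 2. The counts were 3 and 1 with the replicate block, without the block, with DESeq2 size factors, with library totals and with no filter. Leaving out each library in turn gave 1 to 18 genes higher and 0 to 10 lower, 1 to 57 for the mEx5 rescue, 1 to 3135 for the pEx5 rescue, 0 to 1235 for the line difference, 3751 to 5086 for knockdown against control, and 0 to 3 for cytoplasm minus nuclei. DESeq2 gave 7 for the mEx5 rescue, 49 for the pEx5 rescue, 22 for the line difference and 5 for cytoplasm minus nuclei, and all 11 libraries gave 2 for each rescue. The count for knockdown against control was 4112 without the replicate block, against 4845. Same-numbered libraries were not all correlated above 0.1, so the number is not shown to pair the cultures. No fold change of the 32 named genes changed sign under any alternative run: 454 values kept their side of the threshold, 15 lost a call and 43 gained one. Values called in neither run count as kept. Part of these genes were picked for their fold change in the same libraries, which the runs share, so a kept sign is no independent support. Where leaving out a library leaves 1 in a group, it is assumed to vary like the others. The cause of these differences in counts was not tested.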
